A study of Mus musculus with 5 samples.

Results

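Primary granule and granulocyte priming genes are a set of 10 genes that mark the earliest steps toward neutrophils. The set was read in RNA from haematopoietic stem and progenitor cells of Gabbr1 null mutant and wild-type (WT) mice. The members were fixed by name (Mpo, Elane, Prtn3, Ctsg, Prss57, Ms4a3, Ccl9, Cebpa, Cebpe and Gfi1) and found by symbol among 39056 genes of the count table. They were chosen with earlier results of these data known, so shares of the set set beside all genes are descriptions only. All 10 were present and all 10 were tested, among 13467 genes tested in all. The 5 libraries were 3 from Gabbr1 null mice and 2 from WT mice, all on a C57BL/6 background at postnatal day 15. Each library came from about 12000 bone marrow cells sorted as LSK (Lin-Sca-1+Kit+), a fraction with blood stem cells and the progenitors just below them. Gabbr1 codes for part of the GABA-B receptor, and the comparison asks how its loss changes gene expression in these cells. Neither the allele, its deleted part, nor whether it is null in blood cells alone is given in the sources used here. The labels do not say that each library came from a separate animal. The p-values below speak only of the spread among libraries. That spread may be technical in part, though null library 1 differed from all others in Xist, as given below.

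Neutrophils store their first antimicrobial proteins in primary (azurophil) granules, which are made at the promyelocyte stage of marrow differentiation. Transcripts for these proteins are already detectable at low levels in multipotent progenitors, a state called priming, and rise as cells commit to the granulocyte and monocyte branch. The transcription factors C/EBP alpha, PU.1, GFI1 and later C/EBP epsilon drive that course. Secondary granule proteins such as lactoferrin follow only in more mature cells.

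Total counts were between 6972753 and 8150774 per library, and levels are given as CPM, counts scaled to a common library size after TMM normalisation. The targeted gene Gabbr1 had 289, 264 and 268 counts in null libraries 1, 2 and 3, against 402 and 403 counts in WT libraries 1 and 2. Counts cover the whole gene, so this is no check of the deletion. The sort marker Kit was at 912 ± 66.4 CPM in null libraries (SD, n = 3) and 1022 ± 37.7 CPM in WT libraries (SD, n = 2). Ly6a, the Sca-1 gene, was at 22.3 ± 8.60 CPM in null libraries (SD, n = 3) and 28.6 ± 2.48 CPM in WT libraries (SD, n = 2). Null library 1 stood apart. It alone held the X-inactivation transcript Xist at a high level, 3002 CPM. Null libraries 2 and 3 were at 2.77 and 0 CPM, and WT libraries 1 and 2 at 0.615 and 0.142 CPM. Null library 1 was thus no technical repeat of the others. The library with high Xist falls in the null group and the fit held genotype only. The part of this difference in the results was not tested. Null library 1 also had the most RNA of mature neutrophil genes, as given beside the results below. Results without it are given where it changed the call of a gene named below. In bulk RNA, more cells of a type and more RNA per cell cannot be told apart.

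Of the 10 genes, 3 rose in null libraries and 0 fell (edgeR's quasi-likelihood test, adjusted p under 0.05). Over all genes tested, 2.15% were called higher and 0.334% lower. The 3 genes were the elastase gene Elane, the cathepsin G gene Ctsg and the chemokine gene Ccl9. With DESeq2, 4 were higher (2.49% of all genes) and 0 lower (0.379%). With limma-voom, 2 were higher (1.62%) and 0 lower (0.26%). At an edgeR p below 0.05 before adjustment, 6 were higher (7.99%) and 0 lower (4.84%), Cebpe among the 6. With no filter on low counts 6 were higher (2.53%) and 0 lower (0.652%). That fit added Mpo, Ms4a3 and Cebpe at nearly unchanged fold changes. Their SE in log2 fold fell from 0.17, 0.52 and 0.87 to 0.13, 0.40 and 0.70, and that of Elane from 0.48 to 0.20. The added calls thus rest on a lower estimate of the spread, not on larger differences. Leaving out null library 1, 2 or 3 gave 3, 4 and 4 members higher (1.88%, 2.38% and 2.39% of all genes) and 0 lower (0.386%, 0.318% and 0.114%). The member added was Mpo without null library 2 and Cebpe without null library 3. In each case the library left out was the null library with the lowest level of that gene. Leaving out WT library 1 gave 1 higher, Ccl9 (0.721%), and 0 lower (0.264%), and leaving out WT library 2 gave 0 higher (0.227%) and 0 lower (0.0%). In that last fit 4 were higher (5.74% of all genes) and 0 lower (2.41%) by unadjusted edgeR p, DESeq2 called 2 higher (1.04%) and limma-voom 0 (0.0%). The median log2 fold change of the 10 was 0.80, against 0.00 over all genes tested. In 7 of the 10 every null library lay above both WT libraries, as in 15.5% of genes tested, and in 0 every null library lay below both (13.7%). Cebpe is among these 7 too, by a near tie. Null library 3 and WT library 1 had 4 counts each (0.493 and 0.492 CPM). Cebpe passed the filter on low counts only through null libraries 1 and 2. Its place in the median and in the counts made with that filter therefore follows in part from the filter. It was also among the 6 higher with no filter, but with the smaller SE given above.

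**Figure D1:**
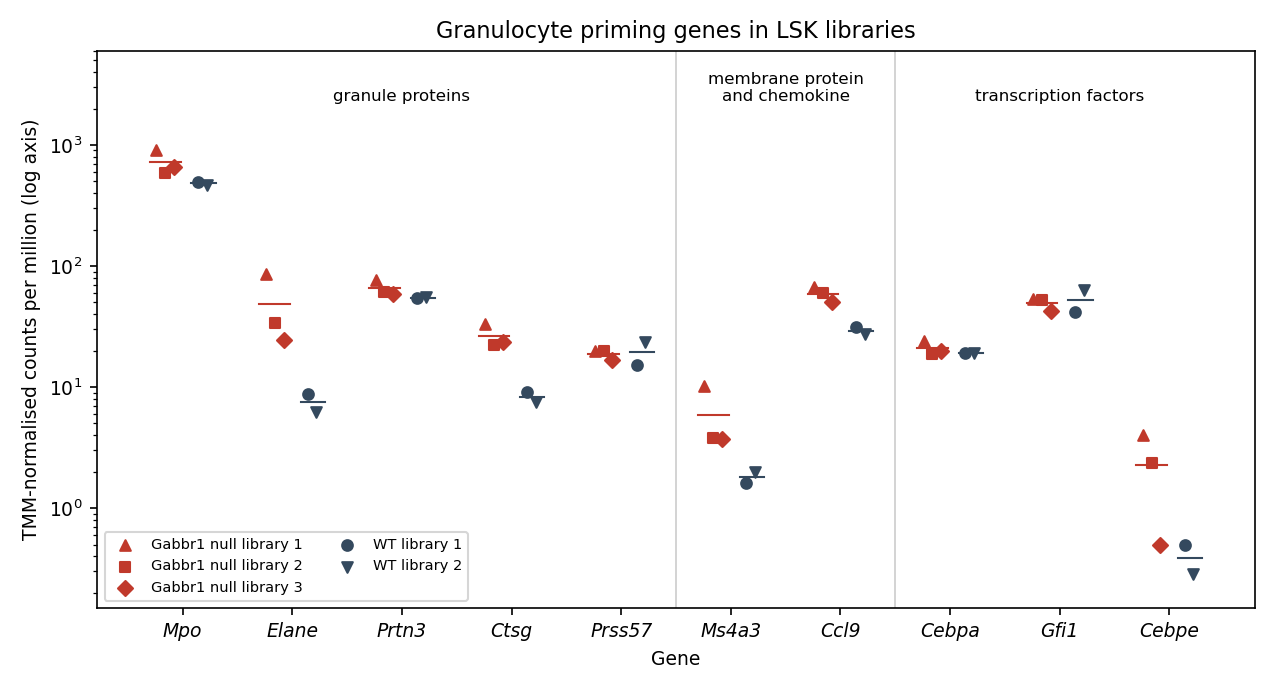
TMM-normalised CPM (log axis) of the 10 genes in each library, with Gabbr1 null libraries in red left of WT libraries in dark blue; horizontal lines are group means. Elane, Ctsg and Ccl9 lie higher in all 3 null libraries, while Prss57, Cebpa and Gfi1 overlap, and null library 1 (triangles) is the highest null library for 9 of the 10 genes (all but Prss57).

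Elane encodes neutrophil elastase, a serine protease of primary granules. Its level was 86.6, 34.0 and 24.4 CPM in null libraries 1, 2 and 3, against 8.74 and 6.27 CPM in WT libraries 1 and 2, from 650, 258 and 198 counts in null and 71 and 44 counts in WT. The groups did not overlap, and the lowest null library was 2.79 times the highest WT library. The log2 fold change was 2.67 ± 0.48 (SE), a 6.38-fold higher fitted level (edgeR adjusted p = 0.0102). It did not pass in limma-voom (adjusted p = 0.0860). The 3 null libraries differed from each other by up to 3.55-fold, the widest spread among the granule protein genes, with null library 1 the highest. Without null library 1 the log2 fold change was 1.95 ± 0.25 (SE), and the call held (edgeR adjusted p = 4.66e-05).

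Ctsg encodes cathepsin G, another serine protease of the same granules, and lies in a protease gene cluster on chromosome 14 (56099881 to 56102574, mm10). Its level was 33.3, 22.2 and 23.5 CPM in null libraries 1, 2 and 3, against 9.11 and 7.55 CPM in WT libraries 1 and 2. All null libraries lay above both WT libraries, and they were closer to each other than for Elane. The log2 fold change was 1.65 ± 0.23 (SE), 3.15-fold, with an edgeR adjusted p of 0.00204. It was 1.45 ± 0.23 (SE) without null library 1, still called (edgeR adjusted p = 0.000634). The Elane and Ctsg calls were both lost without WT library 1 (edgeR adjusted p = 0.131 for Elane and 0.0510 for Ctsg) and without WT library 2 (0.364 for Elane and 0.129 for Ctsg). In those fits 1 WT library was left, which was assumed to vary like the null ones.

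Mpo, which encodes the haem enzyme myeloperoxidase and is the most abundant of the 10 genes, lies on chromosome 11 (87793581 to 87804413). It was at 909.8, 592 and 656 CPM in null libraries 1, 2 and 3, against 492 and 468 CPM in WT libraries 1 and 2. The groups did not overlap, by a modest margin. The log2 fold change of 0.58 ± 0.17 (SE) did not pass (edgeR adjusted p = 0.124). It passed in DESeq2 (adjusted p = 0.0126), and in edgeR with no filter on low counts (adjusted p = 0.000735) and without null library 2 (adjusted p = 0.0312). The fit with no filter had the same log2 fold change with a smaller SE of 0.13. The fit without null library 2 leaves out the lowest null library for Mpo, so it gives no separate support. Without null library 1 it was 0.38 ± 0.15 (SE, edgeR adjusted p = 0.347). A non-coding gene on the opposite strand, Gm11505, shares 512 of the 3424 exon bases of Mpo, and no source used here gives the strand setting of the counts.

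Prtn3 encodes proteinase 3, a close relative of elastase and its neighbour in the genome. It was at 76.3, 60.4 and 58.9 CPM in null libraries 1, 2 and 3, against 54.3 and 55.1 CPM in WT libraries 1 and 2. The groups did not overlap, by a small margin. The log2 fold change was 0.25 ± 0.13 (SE), short of the threshold with an adjusted p of 0.467 in edgeR. Of the 1732 exon bases of Prtn3, 159 also belong to Plppr3 on the opposite strand, so reads there may not be told apart. Plppr3 was at 85.7 ± 12.4 CPM in null libraries (SD, n = 3) and 117.4 ± 28.1 CPM in WT libraries (SD, n = 2). Its log2 fold change was -0.45 ± 0.16 (SE, edgeR adjusted p = 0.208). Prss57, which encodes a serine protease found in neutrophil azurophil granules, was at 19.9, 19.9 and 16.8 CPM in null libraries 1, 2 and 3, against 15.3 and 23.8 CPM in WT libraries 1 and 2. All 3 null libraries lay between the WT libraries. Its log2 fold change was -0.05 ± 0.21 (SE, edgeR adjusted p = 0.962). Of its 2843 exon bases, 1157 also belong to Fstl3 on the opposite strand, so reads of the 2 genes may not be told apart. Fstl3 itself had 1.58 ± 0.818 CPM in null libraries (SD, n = 3) and 1.65 ± 1.32 CPM in WT libraries (SD, n = 2).

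Elane, Prtn3 and Prss57 lie together on chromosome 10, Prss57 at 79781474 to 79790961, Prtn3 at 79874476 to 79883174 and Elane at 79886247 to 79888215 (mm10). The last bases of Prtn3 and the first of Elane are 3072 bases apart, and both genes are read from the same strand. Within that short stretch the fitted differences were unlike, with 2.67 ± 0.48 for Elane and 0.25 ± 0.13 for Prtn3 (log2, SE). Per kilobase of exon, Elane stood at 2.00, 0.992 and 0.729 times the level of Prtn3 in null libraries 1, 2 and 3, against 0.283 and 0.200 times in WT libraries 1 and 2. The ratio was thus higher in all 3 null libraries, a mean difference of 2.25 on the log2 scale. An exact two-sided permutation test over the libraries gave p = 0.1, the smallest that 10 splits allow, and 0.15 adjusted over 6 such ratios. The ratios were chosen after the values of the genes had been seen. The part of the exon bases that Prtn3 shares with Plppr3 in its values and ratios was not tested. Besides these 3, 10 tested genes around the cluster gave 0 calls in any of the 3 tools, and by unadjusted edgeR p below 0.05 1 was higher and 2 lower. Ptbp1, an abundant splicing regulator, had a log2 fold change of -0.03 ± 0.12, and R3hdm4 one of -0.23 ± 0.11 (SE, edgeR adjusted p = 0.953 and 0.398). Cfd, the gene next to Elane on its other side, encodes the serine protease complement factor D and had at most 1 count in any library.

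**Figure D2:**
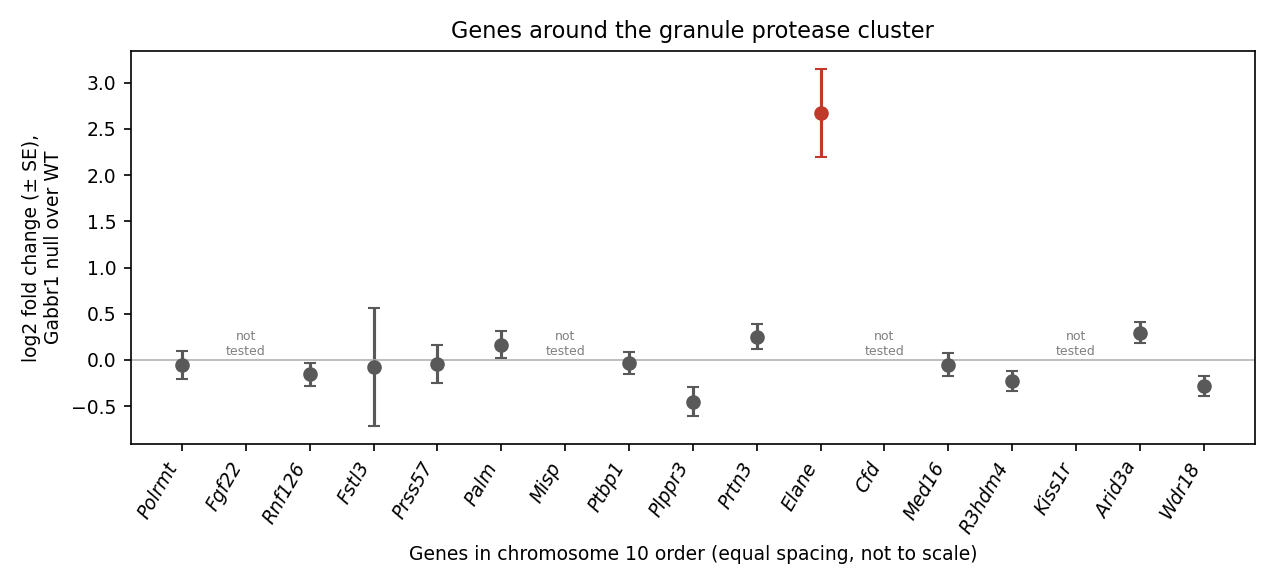
Log2 fold change (Gabbr1 null over WT, ± SE) of Prss57, Prtn3, Elane and 14 listed genes around them, in chromosome 10 order with equal spacing; genes marked as not tested had too few counts. Elane, in red, is the only one of the 13 tested genes past the threshold (adjusted p under 0.05), with 2.67 ± 0.48 beside 0.25 ± 0.13 for Prtn3.

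The promoters of the neighbours Elane and Prtn3, one called and one not, and of Ctsg, which rose from another chromosome, are shown to set their start regions side by side. Each runs from 250 bases before to 50 bases after the RefSeq start (GRCm38.p6, the mm10 assembly), 5′ to 3′ on the gene's strand. They are chr10:79886062-79886361 on the plus strand for Elane, chr10:79879417-79879716 on the plus strand for Prtn3 and chr14:56102525-56102824 on the minus strand for Ctsg. The RefSeq start of Prtn3 lies inside the longer GENCODE gene given above. Capitals mark matches, on either strand, to GAGGAA (the core bound by PU.1), AACNG (MYB) and TGTGGT (RUNX), which do not overlap each other in these windows. TTGCNNAA (C/EBP) was searched too and has no match in them.
Elane: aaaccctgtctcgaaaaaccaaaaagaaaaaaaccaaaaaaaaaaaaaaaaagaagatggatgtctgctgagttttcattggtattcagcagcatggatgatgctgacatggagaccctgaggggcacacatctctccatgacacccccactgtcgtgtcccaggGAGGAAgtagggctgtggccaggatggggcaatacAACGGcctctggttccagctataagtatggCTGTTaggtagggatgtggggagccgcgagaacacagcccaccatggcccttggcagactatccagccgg
Prtn3: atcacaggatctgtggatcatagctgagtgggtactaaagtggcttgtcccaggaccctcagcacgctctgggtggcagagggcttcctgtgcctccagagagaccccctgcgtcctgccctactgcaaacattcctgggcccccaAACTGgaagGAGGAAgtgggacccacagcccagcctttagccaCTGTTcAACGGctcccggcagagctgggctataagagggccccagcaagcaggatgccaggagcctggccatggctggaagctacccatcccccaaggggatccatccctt
Ctsg: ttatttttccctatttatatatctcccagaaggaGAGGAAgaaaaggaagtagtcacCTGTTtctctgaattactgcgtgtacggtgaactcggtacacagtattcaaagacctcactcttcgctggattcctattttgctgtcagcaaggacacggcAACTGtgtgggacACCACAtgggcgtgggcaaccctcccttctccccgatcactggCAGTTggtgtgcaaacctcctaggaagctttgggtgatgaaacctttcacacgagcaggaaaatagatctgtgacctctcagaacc

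In both neighbours GAGGAA and AACGG follow each other at nearly the same distance from the start. GAGGAA begins 85 bases before the start in Elane and 95 bases before it in Prtn3, and AACGG begins 50 and 55 bases before it. In Ctsg, GAGGAA lies farther away, 216 bases before the start, and the RUNX letters lie at 79. RefSeq promoters were at hand for 8 of the 10 genes, 9 windows in all, since Gfi1 has more than 1 start. GAGGAA was found in 5 of the 9 (Mpo, Elane, Prtn3, Ctsg and Ms4a3) and in 28.3% of all 32851 promoters. AACNG was found in 8 of 9 and in 80.3% of all promoters, TTGCNNAA in 2 of 9 (Ms4a3 and Gfi1, where it overlaps an AACNG match) and in 10.8%, and TGTGGT in 1 of 9 and in 16.8%. These are letter matches in a short window, not measured binding sites.

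Summed over the 5 granule protein genes, the level was 1126, 728 and 779.9 CPM in null libraries 1, 2 and 3, against 579.7 and 561 CPM in WT libraries 1 and 2. Mpo made up 80.8% to 84.1% of that sum in null and 83.5% to 84.9% in WT. The share of Elane was 7.69%, 4.68% and 3.13% in null libraries 1, 2 and 3, against 1.51% and 1.12% in WT libraries 1 and 2, and that of Ctsg was 2.96% to 3.04% in null against 1.35% to 1.57% in WT. Elane and Ctsg therefore gained within the sum, and Prtn3 held 6.78% to 8.30% of it in null libraries and 9.36% to 9.83% in WT libraries. Per kilobase of exon, Ctsg kept nearly 1 ratio to Mpo in null libraries, at 0.121, 0.124 and 0.119, against 0.0613 and 0.0534 in WT libraries (exact two-sided permutation p = 0.1, adjusted 0.15).

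Ms4a3 and Ccl9 are genes of committed granulocyte and monocyte progenitors with products outside the granules. Ms4a3 encodes a membrane protein that labels these progenitors in mice. It was at 10.3, 3.83 and 3.70 CPM in null libraries 1, 2 and 3, against 1.60 and 1.99 CPM in WT libraries 1 and 2, from 77, 29 and 30 counts in null and 13 and 14 counts in WT. The groups did not overlap, yet the log2 fold change of 1.72 ± 0.52 (SE) did not pass (edgeR adjusted p = 0.135). Null library 1 was 2.73 times the mean of the other null libraries, and without it the value was 1.07 ± 0.47 (SE, edgeR adjusted p = 0.417).

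Ccl9 encodes a CC chemokine of myeloid cells that signals through the receptor CCR1 (chromosome 11, 83572919 to 83578636). Its level was 67.4, 59.9 and 50.4 CPM in null libraries 1, 2 and 3, against 31.1 and 27.2 CPM in WT libraries 1 and 2. Libraries of each group lay close together, within 1.34-fold in null and 1.14-fold in WT, and did not overlap between the groups. The log2 fold change was 1.02 ± 0.15 (SE), 2.03-fold (edgeR adjusted p = 0.00308). It passed in edgeR, DESeq2 and limma-voom and without any 1 library except WT library 2 (edgeR adjusted p = 0.134). The 5 other tested genes in a list of CC chemokines and their receptors gave 0 calls in any of the 3 tools, and by unadjusted edgeR p below 0.05 0 were higher and 2 lower. Without null library 1, Ccl3 was called lower (-2.18 ± 0.36 SE in log2 fold, edgeR adjusted p = 0.000992). Ccl3 and Ccl4, the most abundant of them, differed by -1.28 ± 0.48 and -0.98 ± 0.39 in log2 fold (SE, adjusted p of 0.261 and 0.294 in edgeR). Ccl6, the nearest chemokine gene, lies 9245 bases from Ccl9 and was at 0.30 ± 0.66 (log2 fold change, SE, adjusted p of 0.911 in edgeR).

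The 3 transcription factors of the set did not pass the test. Cebpa encodes C/EBP alpha, which is needed for progenitors to enter the granulocyte and monocyte branch. It was at 24.1, 18.9 and 19.9 CPM in null libraries 1, 2 and 3, against 19.1 and 19.2 CPM in WT libraries 1 and 2. The groups overlapped, and the log2 fold change was 0.13 ± 0.17 (SE, edgeR adjusted p = 0.837). Gfi1 encodes a zinc finger repressor needed for neutrophil formation, and was at 53.6, 52.0 and 42.3 CPM in null libraries 1, 2 and 3, against 41.7 and 63.1 CPM in WT libraries 1 and 2. All null libraries lay between the WT libraries (log2 fold change -0.09 with an SE of 0.17, adjusted p of 0.900 in edgeR).

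Cebpe encodes C/EBP epsilon, which acts later and switches on secondary granule genes. It had 30, 18 and 4 counts in null libraries 1, 2 and 3, against 4 and 2 counts in WT libraries 1 and 2, or 4.00, 2.38 and 0.493 CPM in null against 0.492 and 0.285 CPM in WT. Null library 3 was thus level with WT library 1, and the signal lay in null libraries 1 and 2. The log2 fold change of 2.48 ± 0.87 (SE) did not pass (edgeR adjusted p = 0.221). Without null library 3 it was 2.96 ± 0.65 (SE, edgeR adjusted p = 0.0286), but that fit leaves out the null library with the lowest level and keeps those that let the gene past the filter, so it gives no separate support. Too few counts were left for a test without null library 1 or null library 2.

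**Figure D3:**
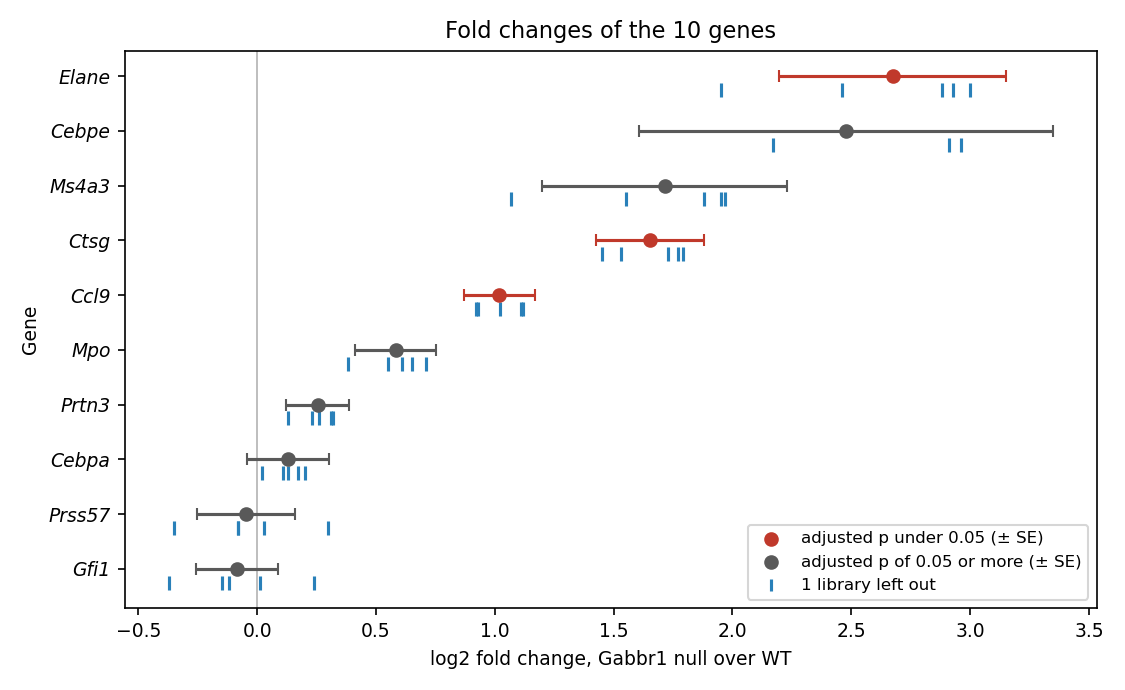
Log2 fold change (Gabbr1 null over WT, x axis) of each of the 10 genes with its SE, red where the adjusted p was under 0.05; blue ticks below each point are the values with 1 library left out. Elane, Ctsg and Ccl9 are past the threshold, Cebpe and Ms4a3 have large values with wide errors, and the ticks of Prss57 and Gfi1 lie on both sides of 0.

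Levels per kilobase of exon (normalised CPM per kilobase) put Mpo far above the rest in both genotypes, at 210.1 ± 49.1 in null libraries (SD, n = 3) and 140.3 ± 4.97 in WT libraries (SD, n = 2). In null libraries Elane (49.1 ± 34.0), Prtn3 (37.7 ± 5.57), Ctsg (25.5 ± 5.88), Ccl9 (19.5 ± 2.80) and Gfi1 (15.5 ± 1.92) followed. Among these neighbours only Prtn3 and Ctsg did not overlap. Cebpa (7.95 ± 1.06), Prss57 (6.63 ± 0.634), Ms4a3 (3.15 ± 1.99) and Cebpe (1.84 ± 1.41) came last, and of these Ms4a3 and Cebpe overlapped. In WT libraries Prtn3 came next after Mpo (31.6 ± 0.341), then Gfi1 (16.4 ± 4.74). Ccl9 (9.58 ± 0.915) lay just above Ctsg (8.06 ± 1.07), Elane (7.62 ± 1.78), Cebpa (7.27 ± 0.0398) and Prss57 (6.87 ± 2.12) in both WT libraries. Those 4 overlapped, except that Ctsg was narrowly above Cebpa in both. Ms4a3 (0.954 ± 0.148) and Cebpe (0.313 ± 0.118) were lowest.

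Markers of mature neutrophils differed strongly among the null libraries. Their sum over 17 genes was 2400, 656 and 160.5 CPM in null libraries 1, 2 and 3, against 183 and 143 CPM in WT libraries 1 and 2. S100a9, a calcium-binding protein of neutrophils, was at 630.5, 167 and 40.3 CPM in null libraries 1, 2 and 3, against 45.5 and 28.2 CPM in WT libraries 1 and 2, and the granule gene Ngp at 628, 180.1 and 32.3 CPM in null against 36.1 and 27.2 CPM in WT. At most 2 of the 17 genes had 0 counts in any library. Of the 14 tested, 0 were called in any of the 3 tools, with 12 higher and 1 lower by unadjusted edgeR p below 0.05. By adjusted edgeR p under 0.05, 12 of 14 were called higher without null library 3 and 3 of 13, S100a9 and Ngp among them, without null library 1. In null library 3, where this sum lay within the WT range, Elane was at 24.4 CPM against 8.74 and 6.27 CPM in WT, Ctsg at 23.5 CPM against 9.11 and 7.55 CPM in WT, and Ccl9 at 50.4 CPM against 31.1 and 27.2 CPM in WT. Cebpe was not raised there, and Ms4a3 was at 3.70 CPM against 1.60 and 1.99 CPM in WT.

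On the log2 scale and relative to the mean of the WT libraries, the median of the 10 genes was 1.06, 0.65 and 0.34 in null libraries 1, 2 and 3, against 0.02 and -0.02 in WT libraries 1 and 2. The 10 include Cebpe, which passed the filter on low counts only through null libraries 1 and 2. For mature neutrophil markers the same medians were 3.98, 2.15 and -0.12 in null against 0.18 and -0.18 in WT. Monocyte and dendritic cell markers had 2.99, 1.65 and 1.02 in null against 0.11 and -0.11 in WT, and of 10 tested 4 were higher and 0 lower (5 higher in DESeq2, 2 in limma-voom). The 4 became 1 without WT library 1 and 0 without WT library 2 (7 by unadjusted edgeR p below 0.05 in all libraries). Their sum was 92.97 to 219 CPM in null and 57.7 to 59.3 CPM in WT, and at most 1 of the 12 genes was at 0 counts in a library. B lineage markers had 3.45, 2.45 and 3.32 in null against 0.70 and -0.70 in WT, and their sum was 802 to 1442 CPM in null and 110.9 to 272 CPM in WT. All 13 tested were higher in edgeR (12 in DESeq2, 13 in limma-voom), and 3 without WT library 2. Endothelial and stromal markers had 4.04, 4.07 and 3.35 in null against -0.03 and 0.03 in WT (8 of 11 higher, 6 in limma-voom, and 5 without WT library 1 or without WT library 2). Erythroid markers had 1.31, 0.55 and 0.08 in null against 0.10 and -0.10 in WT, and 1 of 6 tested was higher and 0 lower (3 higher without null library 3, 0 without either WT library). Of 6 megakaryocyte genes 1 was higher and 1 lower, and of 2 T or NK genes 0 were called in any tool or at an unadjusted edgeR p below 0.05. The call of Pf4, the megakaryocyte gene that was higher, was lost without null library 3, without either WT library and in limma-voom. LSK genes had -0.34, -0.32 and -0.30 in null against -0.04 and 0.04 in WT, and 1 of 9, Hlf, was lower (3 of 9 in DESeq2), a call that was lost on leaving out any library but null library 2. Of the 11 endothelial and stromal markers, 4 had 0 counts in WT library 1 and 3 in WT library 2, against 0 in each null library. Those genes passed the filter on low counts only through null libraries, so the list's medians and calls follow in part from that filter. Its 2 most abundant genes, Pecam1 and Emcn, were not called (0.30 ± 0.10 and -0.002 ± 0.16 in log2 fold, SE, edgeR adjusted p = 0.21 and 0.998). In null library 3 mature neutrophil markers were at the WT level, while monocyte and dendritic, B lineage and endothelial and stromal markers were above it. The part of any of these cell types in the levels of the 10 genes was not tested.

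**Figure D4:**
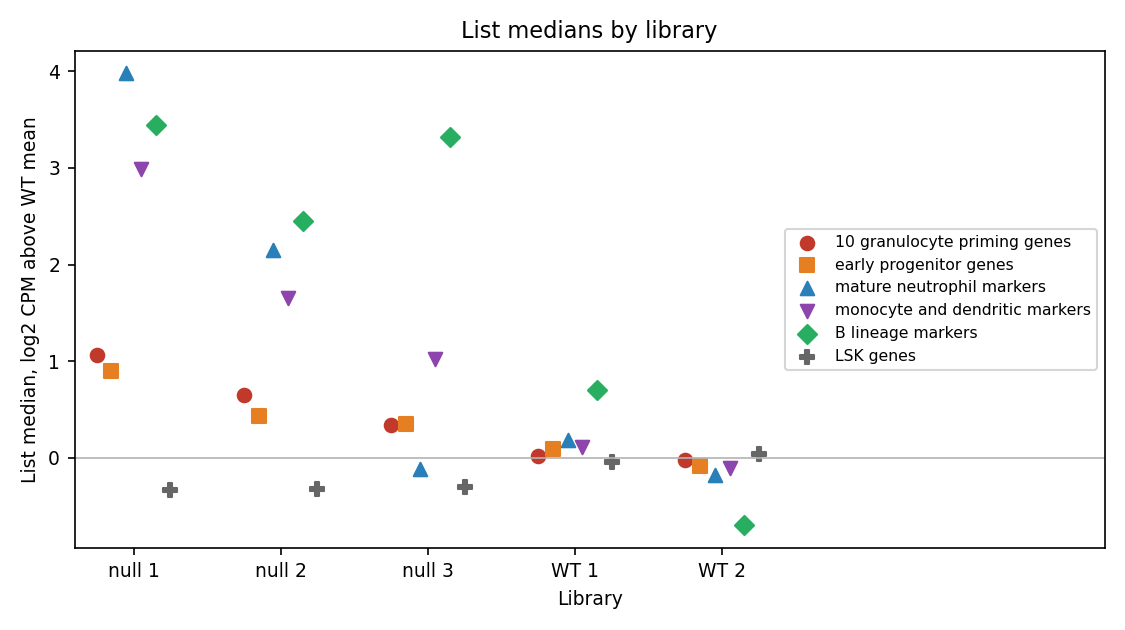
Median over the tested genes of each list of log2 CPM relative to the WT mean, by library (3 Gabbr1 null libraries left, 2 WT libraries right). The 10 granulocyte priming genes (red circles) lie above 0 in all 3 null libraries, at 1.06, 0.65 and 0.34, while mature neutrophil markers (blue triangles) are at 3.98 and 2.15 in null libraries 1 and 2 and at -0.12 in null library 3. The 10 include Cebpe, which passed the filter on low counts only through null libraries 1 and 2.

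Other genes of early granulocyte and monocyte progenitors moved in part. Of 18 tested in a list of 22, 5 rose and 0 fell (6 higher in DESeq2, 4 in limma-voom), with a median log2 fold change of 0.53. Among them were Tifab, an adaptor related to TIFA, the phospholipid flippase gene Atp8b4, the inhibitory lectin receptor gene Clec12a and the Fc receptor gene Fcgr3. The Fcgr3 call was lost without null library 1 (edgeR adjusted p = 0.113), without null library 2 (0.0823) and in limma-voom (0.130), and the Clec12a call in DESeq2 (0.0855). Tifab and Atp8b4 differed by 1.12 ± 0.19 and 1.02 ± 0.17 in log2 fold (SE, adjusted p of 0.00728 and 0.00601 in edgeR). Plac8, the most abundant of the list, was at 0.36 ± 0.15 (SE), short of the threshold with an adjusted p of 0.329 in edgeR. Of the list, 1 passed without WT library 1, 0 without WT library 2 and 8 without null library 3.

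Among 18 other transcription factors and regulators of the myeloid course, 3 rose and 0 fell in edgeR, DESeq2 and limma-voom alike, and the median was 0.06. Irf8, which steers progenitors to monocytes and dendritic cells, was at 159, 86.6 and 77.7 CPM in null libraries 1, 2 and 3, against 39.1 and 34.5 CPM in WT libraries 1 and 2 (log2 fold change 1.55 with an SE of 0.26, adjusted p of 0.00728 in edgeR). Zeb2, a zinc finger factor with roles in several blood lineages, rose by a smaller amount (0.56 ± 0.11 SE, edgeR adjusted p = 0.0148). Lef1 rose most, by 3.70 ± 0.40 (SE, edgeR adjusted p = 0.000513), and it is also a factor of early B cells, whose markers were higher in the same libraries. Spi1, which encodes PU.1, had a log2 fold change of -0.08 ± 0.12 and Myb one of 0.06 ± 0.12 (SE, edgeR adjusted p 0.867 for Spi1 and 0.899 for Myb). Of the 3 calls only that of Lef1 held without WT library 1 and without WT library 2.

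Genes for growth factor receptors and for the handling of granule proteins were not called. Of 8 tested receptor genes, 0 passed in any of the 3 tools, with 0 higher and 1 lower by unadjusted edgeR p below 0.05, and a median of 0.09. The gene lower there was Csf3r, the receptor for granulocyte colony-stimulating factor, at 145, 138 and 128 CPM in null libraries 1, 2 and 3, against 155 and 195 CPM in WT libraries 1 and 2 (log2 fold change -0.35 with an SE of 0.12, adjusted p of 0.204 in edgeR). Of 15 tested genes for processing, packing and inhibition of granule proteins, again 0 passed, with 0 higher and 1 lower by unadjusted edgeR p below 0.05, and a median of 0.00. Ctsc, the protease that activates elastase, cathepsin G and proteinase 3, had a log2 fold change of 0.16 ± 0.12, and Srgn, the proteoglycan that retains granule proteases, one of 0.01 ± 0.12 (SE, edgeR adjusted p = 0.653 and 0.983). Ctsc and Srgn were chosen after their values were seen.

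**Figure D5:**
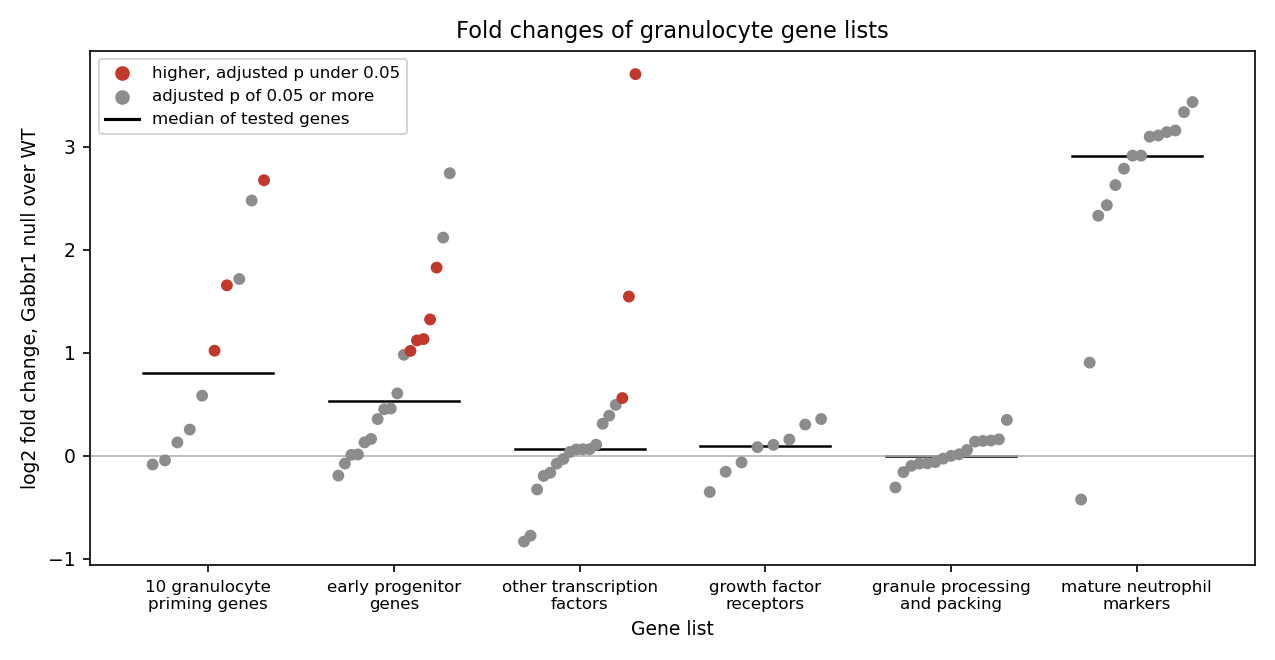
Log2 fold change (Gabbr1 null over WT) of each tested gene in 6 lists, sorted within a list, red where higher with an adjusted p under 0.05; black lines are list medians. Medians are 0.80 for the 10 granulocyte priming genes, 0.53 for early progenitor genes, 0.06, 0.09 and 0.00 for transcription factors, receptors and granule processing, and 2.91 for mature neutrophil markers, of which 0 passed. The median of 0.80 includes Cebpe, which passed the filter on low counts only through null libraries.

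Relatives of the granule proteins outside the neutrophil line gave mixed values. Epx, the eosinophil peroxidase gene related to Mpo, was at 52.0, 12.3 and 0.123 CPM in null libraries 1, 2 and 3, against 37.5 and 22.2 CPM in WT libraries 1 and 2 (log2 fold change -0.49 with an SE of 0.86, adjusted p of 0.885 in edgeR). Its libraries overlapped widely, as did those of Prg2, an eosinophil granule protein gene (37.8, 6.99 and 0 CPM in null against 27.7 and 17.1 CPM in WT). Without null library 1 both were called lower, at -2.29 ± 0.58 for Epx and -2.71 ± 0.58 for Prg2 on the log2 scale (SE, adjusted p of 0.0382 and 0.0110 in edgeR). Pxdn, a peroxidase of extracellular matrix, had 49, 45 and 38 counts in null libraries 1, 2 and 3, against 0 and 4 counts in WT libraries 1 and 2. It was called higher (edgeR adjusted p = 0.00448), but not without WT library 1 (log2 fold change 3.28 ± 0.58, SE). Pxdn passed the filter on low counts only through null libraries, so its call follows in part from that filter. Of 8 tested genes of mast cells, basophils and eosinophils, 1 was higher and 0 lower in each of the 3 tools (0 higher without WT library 2, 2 higher without null library 3, and 1 higher and 1 lower, Prg2, without null library 1). It was Cpa3, a mast cell carboxypeptidase (15.2, 21.1 and 12.8 CPM in null against 6.15 and 2.14 CPM in WT, edgeR adjusted p = 0.0140).

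The genes most like the mean profile of the granule protein genes across the 5 libraries were found by Pearson's r of log2 CPM. The search covered 386 other genes with a mean of at least 5 CPM and an SD of at least 0.5. Each granule protein gene was centred but not scaled, so those that varied most, Elane above all, weigh most in the profile. Prss57, whose null libraries all lay between the WT libraries, does not follow it. The profile was 0.81, 0.23 and 0.13 in null libraries 1, 2 and 3, against -0.57 and -0.60 in WT libraries 1 and 2. The closest were Irf8 (r = 0.9985), Ermap (0.994), Sptb (0.994), Atp1b2 (0.993), Optn (0.993) and Aqp1 (0.990). Ermap, Sptb and Aqp1 encode membrane or membrane-skeleton proteins of red cells, and Sptb was at 38.4, 12.0 and 8.75 CPM in null libraries 1, 2 and 3, against 2.95 and 3.13 CPM in WT libraries 1 and 2. The values describe 5 libraries that share 1 high library and a genotype split, and carry no p.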

How the data were processed

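RNA from LSK cells of 3 Gabbr1 null and 2 WT mouse libraries was measured by sequencing. Per the labels' protocols, libraries were made from 3.6 to 5 ng of RNA with ribosomal depletion and read as 50 bp pairs, while the molecule field names polyA RNA. The protocol text gives more animals per genotype than the libraries listed. The authors deposited raw whole-number counts per gene. STAR, featureCounts and mm10 are named per the submitters' processing notes. No source at hand states their versions, the annotation, the strand setting or how duplicate reads were treated. The SE and p-values rest on the spread among libraries, and the effect of these unstated settings on them was not tested.

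Symbols, coordinates and exon lengths came from GENCODE M21 (mm10), which held 99.5% of the identifiers. Of 39056 genes, filterByExpr kept 13467. Counts were TMM-scaled and fitted on genotype with edgeR 4.0.16 (glmQLFit and glmQLFTest, R 4.3.3), leaving 3 residual degrees of freedom. P-values were adjusted over all genes tested (Benjamini-Hochberg, threshold 0.05), fold changes are null over WT, and SE was derived from F. Log2 CPM used a prior count of 2. DESeq2 1.42.0, limma-voom 3.58.1, RLE factors, other filters, a looser threshold (0.1) and fits with a library omitted were alternatives. On simulated counts of 13157 genes for null over WT recovery was 35.8% at a 1.5-fold change, 71.0% at 2-fold and 93.8% at 4-fold, with 11 false among 139 calls. No 2 libraries of a group agreed within sampling noise (chi-square per degree of freedom 7.61 to 12.0).

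Members and gene lists were chosen with earlier results of these data known. The naming rule took the 10 members, Gabbr1, genes of the pathway and locus lists past the threshold, the 2 most abundant genes of each list, Kit, Ly6a and Xist as checks, and the 6 genes of most similar profile, of which not all are printed, and 2 genes are not reported here. Spi1, Cfd, Ccl6, Fstl3 and Plppr3 were added after their values were seen. Promoters are RefSeq windows of GRCm38.p6, and exact permutation tests enumerated every assignment of libraries to groups.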

Additional observations from a re-analysis of the deposited data

How the results depend on the processing

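Among the 97 fits of single members under the alternatives, 81 stayed on the same side of the threshold with the same direction, 6 lost the call, 6 gained it and 4 changed sign. The sign changes were in Prss57, whose log2 fold change ran from -0.35 to 0.30 with 1 library left out (0.03 without null library 3), and in Gfi1, from -0.37 to 0.24 (0.01 without null library 3); neither was called in any fit. The number of members higher was 6 with no filter on low counts (adding Mpo, Ms4a3 and Cebpe) and 0 to 4 with 1 library left out. Without WT library 1 only Ccl9 remained, and without WT library 2 edgeR and limma-voom called 0 and DESeq2 2 (146 of 14084 genes), with 4 higher at an unadjusted p under 0.05 in edgeR (808 of 14084 genes). Over all genes, 602 were higher and 155 lower with no filter, 173 were higher with CPM of at least 1 in every library, and 81 were lower at an adjusted p under 0.1. Leaving out 1 library gave 32 to 316 higher and 0 to 51 lower. The 0 lower without WT library 2 (DESeq2 6, limma-voom 0) stood beside 339 at an unadjusted p under 0.05 in edgeR; without WT library 1, 101 were higher, and without null library 3, 15 were lower. With so few libraries, the fits with 1 WT library rest on the spread of the null ones. Cebpe and Ms4a3 had few counts and null libraries that differed widely, and the part of either in their missing calls was not tested. No paired analysis was possible because the labels give no batch, litter or pairing of libraries.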
